A study of Mus musculus with 2 samples.

Results

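Mir451a, Mir144 and Mir486 are the microRNA (miRNA) genes best known from red blood cells, and their levels were read here in the embryonic face of the mouse, the facial prominences at day 14.5. The genes were taken by symbol, and all 3 had a row among the 1973 miRNA genes of the count files. Mir451b and Mir486b, the genes annotated on the opposite strands of Mir451a and Mir486, had no row. Mir486b carries the symbol Mir3107 in the annotation. The facial prominences are the tissue buds that form the face and jaws. Both samples came from strain B6NCrl, with no treatment or altered allele named in the labels, and form 1 group of 2 biological replicates taken on different days. The labels describe each sample as the face of a single pup and also give a mixed sex, so it is unclear if each library stands for a single embryo. They do not say whether blood was washed from the tissue. No conditions can be contrasted within a single group, and day of collection and replicate cannot be told apart.

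The pair Mir144 and Mir451a is transcribed as one primary transcript that the erythroid factor GATA1 switches on as red cells mature, and Mir486 lies within Ank1, the gene of the red cell membrane skeleton protein ankyrin. A typical miRNA is cut from its primary transcript by Drosha and from its hairpin by Dicer. miR-451a is the known exception, because its hairpin is too short for Dicer and is cut by the Argonaute protein that will carry it. Mir486 is also known from skeletal muscle, so of the 3 genes it is the one least restricted to red cells.

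The mature sequences and the hairpins are printed because the unusual layout of miR-451a and the absence of a shared seed can be read from them. They are those of RefSeq on build GRCm38.p6, which held entries for Mir144, Mir451a and Mir451b. Each is written 5′ to 3′ with the seed, bases 2 to 8, in capitals.
miR-451a: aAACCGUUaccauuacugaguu
miR-144-3p: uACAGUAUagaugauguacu
miR-144-5p: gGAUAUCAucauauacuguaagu
miR-451b: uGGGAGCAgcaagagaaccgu
The 4 seeds all differ, and none of the other mature miRNAs in the table of 1738 carries any of them. Bases 2 to 7 of miR-144-3p recur in 1 other mature form, miR-101a-3p, which is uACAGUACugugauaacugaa. Its gene Mir101a stood at 167 CPM (gene-strand counts scaled to a common miRNA total per library) in replicate 1 and 110 CPM in replicate 2.

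In the hairpins below, the capitals mark the mature forms.
Mir451a hairpin: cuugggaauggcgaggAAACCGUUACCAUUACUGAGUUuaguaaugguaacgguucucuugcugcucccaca
Mir144 hairpin: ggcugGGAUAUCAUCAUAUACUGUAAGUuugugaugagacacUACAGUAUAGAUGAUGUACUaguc
The Mir451a hairpin has 72 bases, of which the mature form takes bases 17 to 38. The minimum-energy fold has its terminal loop at bases 35 to 38, so that the mature form holds all 4 loop bases and ends with them. In the 66-base Mir144 hairpin the loop lies at bases 31 to 36, and neither miR-144-5p (bases 6 to 28) nor miR-144-3p (bases 43 to 62) reaches it. Among 1559 mature forms whose RefSeq hairpin folds with 1 terminal loop, 2 hold the whole loop (0.128%), miR-451a and miR-468-5p.

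**Figure D1:**
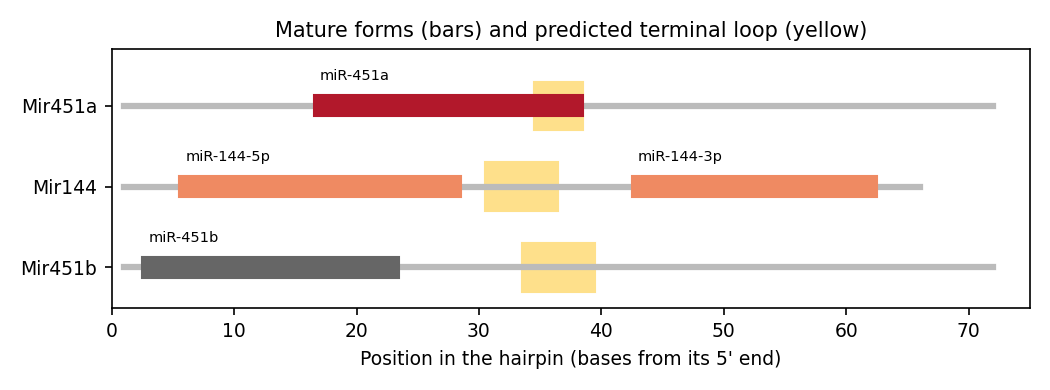
Position of each mature form (coloured bars) and of the predicted terminal loop (yellow) in the hairpins of Mir451a, Mir144 and Mir451b, in bases from the 5′ end of each hairpin (grey lines). The bar of miR-451a covers its loop at bases 35 to 38, and the bars of Mir144 and Mir451b stay clear of theirs.

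On assembly mm10, Mir144 (ENSMUSG00000065401.1) lies on chromosome 11 at 78073005 to 78073070 and Mir451a (ENSMUSG00000070065.1) at 78073170 to 78073241, both on the plus strand with 99 bases between them. Neither hairpin lies in an exon or intron of a longer gene. Mir451b covers the same 72 bases as Mir451a on the minus strand, and the protein-coding gene Eral1, also on the minus strand, has its 3′ end 134 bases further on. Mir486 (ENSMUSG00000070084.3) lies on chromosome 8 at 23142555 to 23142682, plus strand. It sits in an intron of Ank1 on the same strand and overlaps Mir3107, at 23142573 to 23142662, and an intron of the noncoding gene Gm15816 on the other strand.

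**Figure D2:**
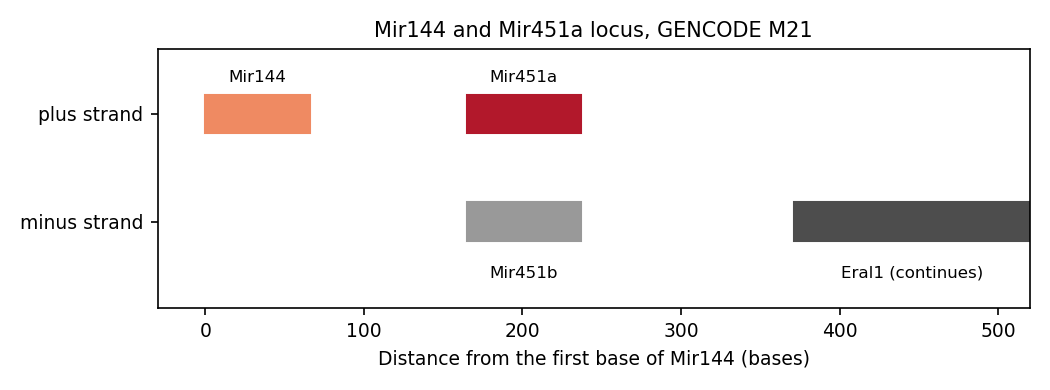
Map of the Mir144 and Mir451a locus, to scale, with the distance in bases from the first base of Mir144 on the horizontal axis and the 2 strands on the vertical axis. Mir144 and Mir451a follow each other on the plus strand with 99 bases between them, and Mir451b lies opposite Mir451a.

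In counts, Mir451a was by far the most abundant of the 3 genes, and Mir486 the least. Some reads of Mir486 can fit both strands of its locus and are left out of the counts, as described below. Its level and share may thus be too low, and ratios of other genes over it too high, by an amount that was not measured. A read here is 1 whole small RNA, so levels of different miRNA genes were compared without division by length, on the CPM scale. Gene-strand miRNA counts summed to 2719153 in replicate 1 and 6602050 in replicate 2, so replicate 2 gives the narrower intervals. Mir451a had 2680 counts in replicate 1, or 986 CPM (95% Wilson interval 949 to 1024), and 8503 counts in replicate 2, or 1288 CPM (1261 to 1316). Replicate 2 was the higher, and the intervals did not overlap. The mean was 1137 ± 214 CPM (SD, n = 2).

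Mir144 had 234 counts in replicate 1, or 86.1 CPM (75.7 to 97.8), and 649 counts in replicate 2, or 98.3 CPM (91.0 to 106). Replicate 2 was again the higher, but the intervals overlapped, and the mean was 92.2 ± 8.66 CPM (SD, n = 2). The count joins both arms of the hairpin, so miR-144-3p and miR-144-5p cannot be told apart.

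Mir486 had 58 counts in replicate 1, or 21.3 CPM (16.5 to 27.6), and 129 counts in replicate 2, or 19.5 CPM (16.4 to 23.2). The libraries were close to each other and the intervals overlapped, with a mean of 20.4 ± 1.27 CPM (SD, n = 2). These intervals cover counting error only. A count of 0 would have allowed up to 1.10 CPM in replicate 1 and 0.454 CPM in replicate 2, well below each of the 3 genes.

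Together the 3 genes took 0.109% of the miRNA counts in replicate 1 and 0.141% in replicate 2. Mir451a made up 90.2% and 91.6% of that sum, Mir144 7.87% and 6.99%, and Mir486 1.95% and 1.39%. By mean CPM, Mir451a ranked 98, Mir144 204 and Mir486 264 among 717 genes with at least 1 count. The ranks were near in both libraries, 105 and 93 for Mir451a, 207 and 200 for Mir144, and 263 and 267 for Mir486.

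**Figure D3:**
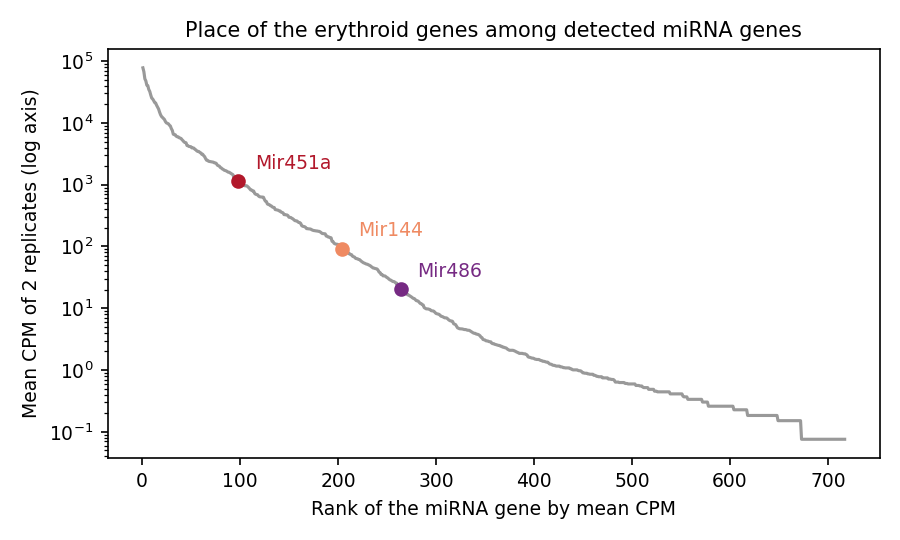
Mean CPM of the 2 replicates (log axis) against rank for the 717 detected miRNA genes (grey line), with the 3 erythroid genes as coloured points. Mir451a lies at 1137 CPM, Mir144 at 92.2 CPM and Mir486 at 20.4 CPM.

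In counts, the order of the 3 genes was clear of their spread, since their ranges over the 2 libraries did not overlap. Their places among neighbouring genes were not clear of it. The spread does not cover the unmeasured loss of Mir486 reads, so it cannot show that Mir486 was lowest before that loss. Next to Mir451a in mean CPM stood Mir542 (1169 ± 133 CPM) and Mir501 (1137 ± 5.57 CPM) above, and Mir467c (1087 ± 0.272 CPM) and Mir300 (1084 ± 178 CPM) below. Around Mir144 stood Mir7j (100.4 ± 31.3 CPM), Mir874 (93.1 ± 9.47 CPM), Mir146 (90.8 ± 5.25 CPM) and Mir345 (89.0 ± 0.0459 CPM). Around Mir486 stood Mir6944 (21.7 ± 1.08 CPM), Mir1955 (20.5 ± 2.96 CPM), Mir326 (20.1 ± 4.86 CPM) and Mir193a (19.8 ± 2.47 CPM). In all 12 cases the range over the 2 libraries overlapped that of the erythroid gene.

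Within a library the ratio of 2 counts needs no scaling. There were 11.5 counts of Mir451a for each of Mir144 in replicate 1 (95% exact interval 10.02 to 13.1) and 13.1 in replicate 2 (12.1 to 14.2), a mean of 12.3 ± 1.17 (SD, n = 2). The intervals of the libraries overlapped, which does not settle whether this ratio differs between the libraries, and that was not tested. For each count of Mir486 there were 46.2 of Mir451a in replicate 1 (35.6 to 61.0) and 65.9 in replicate 2 (55.4 to 79.1). These intervals also overlapped, and a difference of this ratio between the libraries was likewise not tested. Mir144 exceeded Mir486 4.03-fold in replicate 1 (3.01 to 5.48) and 5.03-fold in replicate 2 (4.16 to 6.13).

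Unequal counts from neighbouring hairpins were common in these libraries. The pairs compared were tested miRNA genes next to each other on one strand with at most 1000 bases between them. Across these 65 pairs the median fold between the higher and the lower mean CPM was 6.76. Mir451a over Mir144 was 12.3 on that measure, and 23 of the 65 pairs were further apart. Some of these hold a gene whose mature form recurs in another hairpin, such as Mir20a with Mir19b-1 (403) and Mir29a with Mir29b-1 (96.7). Reads that fit both hairpins are left out, so such folds may not stand for the mature forms. How many of the 23 pairs this touches was not counted. Adapter ligation favours some sequences, and loss of reads at several sites differs between genes, so a ratio of counts is not a ratio of molecules. How much either contributed here was not tested.

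The gene counts leave out reads with more than 1 position in the genome, which made up 29.8% of replicate 1 and 28.5% of replicate 2. Within their own loci the 3 genes differ in how far this can touch them. None of the 3 shares a stretch of 20 bases with a miRNA gene elsewhere. Only annotated miRNA genes were searched, so other positions in the genome were not checked. The longest stretch that also occurs on the opposite strand of the same hairpin was 9 bases for Mir144 and 16 for Mir451a, and the best placement of the 22-base miR-451a on that strand had 4 mismatches. In Mir486 this stretch was 22 bases long, about the length of a mature miRNA. A read that lies inside it fits both strands of the locus, has more than 1 position and is counted for neither gene, so the level of Mir486 may be too low by an amount that was not measured. Of 1894 genes with a row and an annotated transcript, 77 hold such a stretch of at least 20 bases.

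The strand columns bear on the same point. No read lay on the opposite strand of Mir451a or Mir144 in either library. At Mir451a this allows a share of up to 0.112% of its reads in replicate 1 and 0.0353% in replicate 2, and the opposite strand is where reads of miR-451b would fall. At Mir486, 10 of 68 reads in replicate 1 (14.7%, Wilson interval 8.19 to 25.0) and 23 of 152 in replicate 2 (15.1%, 10.3 to 21.7) lay on the opposite strand, the strand of Mir3107. The share was alike in both libraries. The gene counts of Mir486 given above leave these reads out.

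Mir451a and Mir144 were called higher in replicate 2, and Mir486 was not called. The counts of each gene were compared by an exact two-sided binomial test after TMM scaling (a trimmed mean that sets most genes level), with Benjamini-Hochberg adjustment over all 372 tested genes at 0.05. The test sets 2 libraries side by side, not conditions, and sees counting error only. All 3 genes passed the filter of a mean of at least 10 counts. Mir451a was higher in replicate 2 by 0.51 on the log2 scale (counting SE 0.032, adjusted p = 4.9e-60), or 1.43-fold (1.36 to 1.49). Mir144 was higher by 0.32 (counting SE 0.11, adjusted p = 0.0081), or 1.25-fold (1.07 to 1.45). Mir486 gave -0.0078 (counting SE 0.23, adjusted p = 1.0), or a fold of 0.999 with an interval of 0.728 to 1.39, which holds the 1.25-fold of Mir144 and lies below the 1.43-fold of Mir451a. Whether the fold of Mir486 differs from that of Mir451a was not tested, and the intervals of the 2 folds overlap.

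Such calls were frequent, so 2 of 3 genes called higher is a count to be read against the background. Of the 372 genes tested, 27.4% were called higher in replicate 2, 24.7% lower and 52.2% in either direction. The median over all tested genes was -0.017 with TMM scaling and -0.14 with total counts. With total counts, under which 17.2% were called higher, 35.8% lower and 53.0% in either direction, Mir451a remained called at 0.39 (adjusted p = 2.7e-34). Mir144 did not pass with that scaling, at 0.19 (adjusted p = 0.14), and Mir486 stood at -0.13 (adjusted p = 0.68). The log2 ratio of Mir451a was exceeded by 34 of the 372 genes, that of Mir144 by 66 and that of Mir486 by 182.

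**Figure D4:**
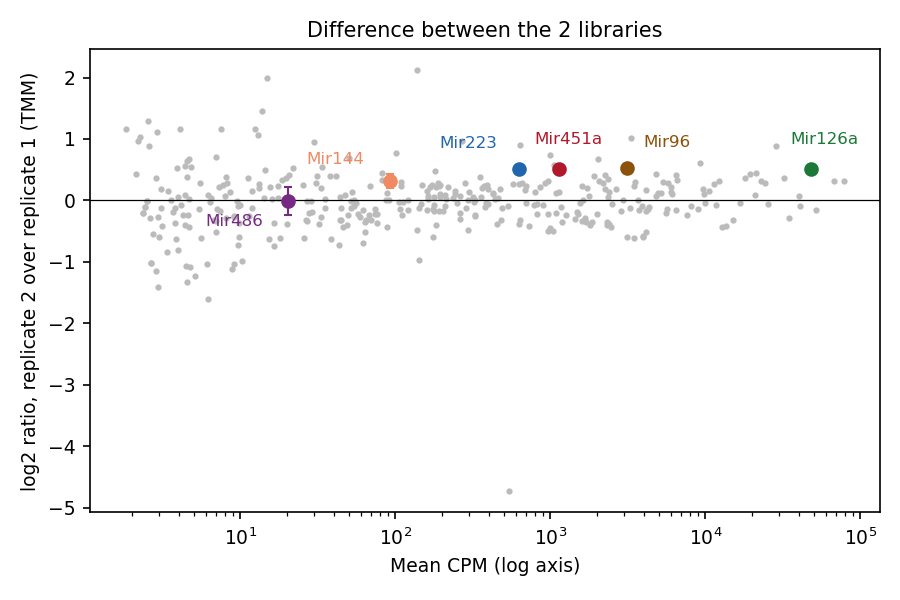
Log2 ratio of replicate 2 over replicate 1 after TMM scaling against mean CPM (log axis) for the 372 tested miRNA genes (grey points). The coloured points are the 3 erythroid genes, with bars of 1 counting SE, and Mir223, Mir126a and Mir96, the genes picked for a log2 ratio nearest the 0.51 of Mir451a.

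The genes with at least 100 CPM whose log2 ratio lay nearest that of Mir451a were Mir223 (0.51), a miRNA of granulocytes and other myeloid cells, Mir126a (0.50), the endothelial miRNA of Egfl7, and Mir96 (0.53), a miRNA of sensory cells. These genes were picked for being near over only 2 libraries, so their likeness to Mir451a is a description. Mir223 stood at 543 CPM in replicate 1 and 710 CPM in replicate 2, Mir126a at 41674 CPM and 54165 CPM, and Mir96 at 2689 CPM and 3547 CPM. In bulk tissue more cells of a type and more RNA per cell cannot be told apart.

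**Figure D5:**
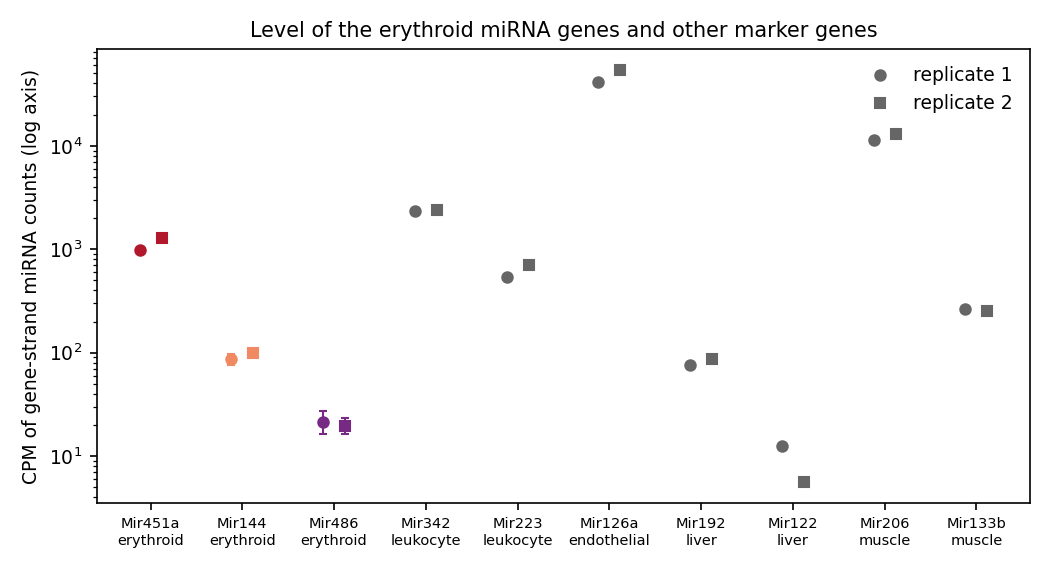
CPM (log axis) in replicate 1 (circles) and replicate 2 (squares) of the 3 erythroid genes, with 95% Wilson intervals, beside genes of other cell types. Mir451a lies above Mir223 in both libraries, and Mir144 and Mir486 lie below it.

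Markers of other cells the tissue could hold did not move as one. The counts below are to be read against the 27.4% of all tested genes called higher and 24.7% called lower with TMM, and 17.2% and 35.8% with total counts. Of the leukocyte list 6 of 9 names matched the symbol of a row, and 5 were detected and tested. Of these, 2 were higher in replicate 2, 0 lower and 3 did not pass (median log2 ratio 0.23, and 1 higher with total counts). Its summed level was 3006 CPM in replicate 1 and 3208 CPM in replicate 2, led by Mir342 (2365 and 2394 CPM) and Mir223. The listed name Mir146a matched no row because the annotation calls the gene of miR-146a Mir146. That gene, at 94.5 and 87.1 CPM (log2 ratio 0.0060, not called), is missing from the counts, median and sum of this list. Mir142b, on the strand opposite the leukocyte gene Mir142, was at 0 on its own strand in both libraries. The listed names Mir142 and Mir142a matched no row either, so that gene is also missing from the counts, median and sum. The 0 of Mir142b does not stand for it. The platelet list, which shares Mir223 with the leukocyte list and Mir126a with the endothelial one, had 2 of 3 higher and 0 lower, with either scaling. The 2 are Mir223 and Mir126a, named above for their nearness to Mir451a.

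The fetal liver makes red cells at this age, and Mir122 is the known miRNA of its hepatocytes. Mir122 had 34 counts in replicate 1 (12.5 CPM) and 37 in replicate 2 (5.60 CPM). The liver list had 1 of 3 tested genes higher, Mir192 (75.8 and 87.5 CPM), and 2 lower, Mir122 and Mir194-2, and its summed level was 147 CPM and 134 CPM. With total counts 0 were higher and the same number were lower. The mature form miR-194-5p lies in the hairpins of both Mir194-1 and Mir194-2, and reads that fit both are left out of the gene counts. The values of Mir194-2 may therefore not stand for this form, and the sum of the list may be too low. The part of liver RNA in the level of Mir451a was not tested.

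Muscle is the other known source of Mir486. Mir206, the skeletal muscle miRNA, stood at 11447 CPM and 13094 CPM and was called higher in replicate 2 (log2 ratio 0.32). Mir486, with 58 and 129 counts, was not called. Its fold interval of 0.728 to 1.39 holds the 1.25-fold of Mir144, whose log2 ratio was also 0.32. Whether the ratios of Mir206 and Mir486 differ was not tested. Counts of Mir206 were 537 times those of Mir486 in replicate 1 (415 to 707) and 670 times in replicate 2 (564 to 803). Of the 4 tested genes of the striated muscle list, 1 was higher, 1 lower (Mir499 at -0.59) and 2 did not pass. Mir1a-1, Mir133a-1 and Mir133a-2 had at most 8 counts in either library. These are numbered gene copies, and reads that fit more than 1 copy are left out of the gene counts. Their levels and the sum of the list may therefore be too low by an amount that was not measured. The summed level of the list was 12179 CPM and 13726 CPM. The share of the Mir486 counts that came from muscle was not tested.

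A further list held miRNAs with a described part in red cell formation, all of which are also made in other tissues. It shares Mir223, Mir150 and Mir155 with the leukocyte list. Of its 19 names 17 had a row and were tested, 7 were higher in replicate 2, 5 lower and 5 did not pass, and with total counts 5 were higher and 6 lower. Over all tested genes the shares were 27.4% higher and 24.7% lower with TMM, and 17.2% and 35.8% with total counts. Its median log2 ratio was 0.16, against -0.017 over all tested genes. Mir22, which favours erythroid maturation, was its highest member at 7676 CPM and 10742 CPM and rose most, by 0.61. Mir16-1 (0.36) and Mir24-2 (0.39) were also higher, and Mir107 (-0.50), Mir103-2 (-0.69) and Mir210 (-0.32), the miRNA of low oxygen, were lower. The mature forms miR-16-5p, miR-24-3p and miR-103-3p each lie in 2 hairpins, and reads that fit both are left out of the gene counts. The values of Mir16-1, Mir24-2 and Mir103-2 may therefore not stand for these forms. Mir221 and Mir222, which hold down the stem cell factor receptor Kit and fall as red cells mature, stood at 241 and 247 CPM and at 119 and 107 CPM. Mir221 was called higher (0.16), but not with total counts, and Mir222 did not pass (-0.029). Mir30a, the second highest of the list, stood at 4657 and 3879 CPM.

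Because miR-451a skips Dicer, genes known to skip the other nuclease, Drosha, were set beside it. Of 6 such names 5 were detected and tested, with 3 higher in replicate 2 and 0 lower, and 1 higher with total counts. Over all tested genes 27.4% were called higher and 24.7% lower, and 17.2% higher with total counts. Their median log2 ratio was 0.14. Mir484 led at 1936 CPM and 2203 CPM (log2 ratio 0.31), followed by Mir320 at 786 CPM and 796 CPM (0.14). Mir451a lay between them in level in both libraries and had the larger log2 ratio.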

How the data were processed

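Small RNA libraries of 2 biological replicates were used. The authors deposited raw read counts per miRNA gene, 1 library per file, on assembly mm10 with GENCODE M4 per the labels and the deposited metadata text. The sources used here do not name the aligner, its settings or the trimming. The 3 count columns and 4 summary rows have the layout of STAR gene counts (both strands, gene strand, opposite strand, uniquely placed reads only). The gene-strand column was used, 48.4% and 49.3% of all reads, and summary rows were left out of totals. Names and positions came from GENCODE M21 on the same assembly (1894 of 1973 identifiers matched).

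CPM used total gene-strand counts. TMM factors (edgeR 4.0.16) were taken over genes with a mean of at least 10 counts, and log2 ratios used a prior of 0.5 counts. The exact binomial test (scipy 1.17.1) was adjusted over all tested genes and tested on simulated data. Those data held counting error only, so they cannot show how the test behaves with spread between replicates. Hairpins were folded with RNAfold 2.7.2. Replicates come from separate samples, with no pairing. The members and gene lists were chosen with earlier results of these data known. Named genes were the 3 members, the 2 next above and below each in mean CPM, the 3 of at least 100 CPM nearest Mir451a in log2 ratio and the 2 highest of each list. Other names were chosen after their values were seen. Alternatives changed the scaling, strand column, filter, prior and depth (DESeq2 1.42.0 for size factors), and left out each replicate.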

Additional observations from a re-analysis of the deposited data

Results flagged for a closer look

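Reads on the opposite strand of Mir486 lie outside the measurement used for its level. There were 10 in replicate 1 and 23 in replicate 2, above the 3 counts that a count of 0 allows. They fall on the strand of Mir3107. Of the 1973 genes, 19 had more than 3 such counts in each library, and 10 of these also had more than 3 on their own strand in each.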

How the results depend on the processing

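Mir451a stayed higher in replicate 2 and past the threshold under all 8 alternatives, with log2 ratios from 0.39 to 0.57. Mir144 stayed higher under all 8 (0.19 to 0.37) and missed the threshold under 1, total counts, at 0.19. Mir486 was not called under any of its 7, and its sign turned with DESeq2 size factors (0.050), the unstranded column (0.00028), thinning of replicate 2 (0.050) and TMM over all gene rows (0.040), which was added once the data had been seen. At a mean of at least 100 counts it is not tested. The number of called genes ranged from 182 to 204. Of the called genes 52.6% were higher in replicate 2 with TMM and 32.5% with total counts. With all reads as the total the levels were 556 CPM for Mir451a, 45.1 CPM for Mir144 and 9.98 CPM for Mir486. Mir486 was at 23.0 CPM in the unstranded column and 22.2 CPM without the highest gene in the total. Single libraries gave 986 to 1288 CPM for Mir451a, 86.1 to 98.3 for Mir144 and 19.5 to 21.3 for Mir486, and ratios of Mir451a to Mir144 of 11.5 to 13.1 and to Mir486 of 46.2 to 65.9. The 58 counts of Mir486 in replicate 1 limit its precision most. No paired analysis was possible because there is 1 group.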
